A study of Mus musculus with 8 samples.

Results

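The genes described here are the chemokines, the interleukins and their receptors in mouse renal proximal tubules after cisplatin. They were chosen by name: every gene row whose Ensembl identifier belongs to a mouse symbol that starts with Ccl, Cxcl, Cx3cl, Ccr, Cxcr, Cx3cr or Il followed by a digit. The rule used no measured value and found 128 of the 21874 gene rows, of which 19742 carry a symbol. The study isolated proximal tubules from the renal cortex of male C57BL/6 mice before (0 h) and 24, 48 and 72 h after an intraperitoneal injection of 30 mg/kg cisplatin, a platinum chemotherapy drug that injures this nephron segment. Each of the 4 times had 2 libraries of total RNA depleted of ribosomal RNA. No untreated or vehicle mice at 24, 48 or 72 h are among the libraries, so an effect of cisplatin and other differences between the times cannot be told apart. The series calls the duplicates biological and gives no animal numbers for them; the p-values therefore reflect no more than the spread between these libraries.

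Chemokines are small secreted proteins that draw leukocytes along a gradient, and they act through G protein-coupled receptors on the responding cell. CC and CXC chemokines are named for the spacing of their first cysteines. Interleukins are cytokines whose receptors signal mainly through the JAK-STAT pathway, while the IL-1 family signals through MyD88 to NF-kB. Injured renal tubules are a known source of several of these ligands, whereas most of the receptors are known from leukocytes.

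Values are FPKM, fragments scaled by transcript length and mapped depth, given for library a and then library b of a time. Log2 fold changes compare group means of log2(FPKM + 1), which understates the change of low genes, and p-values are limma's, adjusted by Benjamini-Hochberg over all 10757 rows that reached 1 FPKM in at least 2 libraries. A gene is said to rise or fall where the adjusted p was under 0.05. The deposited values hold no counts of linear RNA, so the depth behind each value is unknown. Libraries of 1 time correlated at 0.989 to 0.994 across genes, and the highest correlation between libraries of different times was 0.978. The median log2 fold change of all tested rows was -0.12 after 24 h, -0.13 after 48 h and 0.07 after 72 h, and the changes below should be read against it.

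The tissue label was checked against marker genes. All 12 proximal tubule markers had a row, and their summed level was 5757 and 6135 FPKM at 0 h, 2926 and 2504 after 24 h, 1700 and 1763 after 48 h, and 709 and 721 after 72 h. The sodium-phosphate cotransporter Slc34a1 went from 1396 and 1483 FPKM at 0 h to 90.8 and 97.7 after 72 h. The summed level of 12 neutrophil markers moved the other way, from 1.23 and 1.24 FPKM at 0 h to 28.3 and 26.2 after 24 h, 24.8 and 29.9 after 48 h, and 67.7 and 65.5 after 72 h. Most of that sum was S100a8, S100a9 and Retnlg, at 32.8 and 30.9, 19.5 and 17.7, and 10.4 and 11.5 FPKM after 72 h. Only 6 of the 12 were tested. Mpo, Elane, Ly6g, Ngp, Ltf and Camp were not, and none of them exceeded 0.378 FPKM in any library. For 10 macrophage and monocyte markers, leaving out Ly6c2 whose row covers other genes, the sum was 61.0 and 52.9 FPKM at 0 h, 84.6 and 70.0 after 24 h, 90.9 and 91.9 after 48 h, and 217 and 227 after 72 h. Endothelial markers (10 of 10) summed to 99.3 to 102 FPKM at 0 h and 208 to 214 after 72 h, and fibroblast and pericyte markers (9 of 9) to 63.3 to 66.8 and 272 to 273. Dendritic cell markers (6 of 7 with a row) summed to 4.68 and 4.71 FPKM at 0 h and 9.29 and 9.20 after 72 h, and platelet markers (5 of 6) to 4.27 and 4.31, then 7.87 and 7.14. T and NK cell markers (13 of 14) summed to between 1.82 and 4.12 FPKM in the 8 libraries. B cell markers other than Cd79a, whose row covers other genes, summed to at most 0.803 FPKM. No marker was listed at 0 in all libraries. These sums move with many of the results that follow, and their part in them was not tested. In bulk tissue, fewer cells of a type and less RNA per cell cannot be told apart.

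Of the 128 genes, 55 reached the level needed for the test and 73 did not, among them 9 listed at 0 in every library and 34 that never reached 0.1 FPKM. At 24 h, 21 of the 55 were higher than at 0 h and 10 lower, against 25.8% and 40.0% of all tested rows. At 48 h, 30 were higher and 9 lower, against 28.5% and 42.1%. By 72 h, 46 were higher and 3 lower, against 37.6% and 32.4%, and the 72 h and 0 h libraries did not overlap for any of the 55, as for 9319 of all 10757 rows. The median log2 fold change of the 55 was 0.08 after 24 h, 0.43 after 48 h and 1.03 after 72 h. Without library b of 72 h, 30 genes in place of 46 were higher at 72 h.

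The successive times were compared in the same way, with groups that share libraries with the comparisons above. From 24 to 48 h, 22 of the 55 rose and 0 fell, against 11.2% and 17.2% of all rows. From 48 to 72 h, 37 rose and 0 fell, against 37.2% and 11.3%, and without library a or b of 72 h the 37 became 22 or 21. Over the whole span from 24 to 72 h, 44 rose and 0 fell, against 37.7% and 19.8%. The highest mean was at 72 h for 43 of the 55 genes (78.2%) and for 36.4% of all tested rows. In all, 20 genes were higher at all 3 times after cisplatin, 15 were higher at 72 h only, and 3 (Cxcl12, Il15 and Il17rb) were lower at all 3 times. Of all 10757 tested rows, 2149 were higher at all 3 times, 1197 were higher at 72 h only, and 2825 were lower at all 3.

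The filter on low values shaped these counts. Under 1 FPKM in both 0 h libraries were 27 of the 55 genes, which could enter the test only by being higher later, so the counts over the 55 are not support for a rise of the family. Among the 25 that reached 1 FPKM in both 0 h libraries, 4 were higher and 9 lower at 24 h (22.9% and 44.7% of all rows with that level), 7 were higher and 9 lower at 48 h (24.3% and 47.2%), and 17 were higher and 3 lower at 72 h (32.8% and 36.5%). Scaling every library to the same median gave 23 higher and 8 lower at 24 h, 35 and 7 after 48 h, and 42 and 4 after 72 h. Over all rows that scaling moved the split more, to 3451 higher and 3619 lower at 24 h from 2772 and 4304, and to 3827 and 3885 after 48 h from 3061 and 4524. It also moved the split over all rows to 2224 and 2580 from 3999 and 1212 between 48 and 72 h, and to 2849 and 3417 from 4053 and 2125 between 24 and 72 h. Quantile normalisation gave 1576 and 1562 between 24 and 48 h in place of 1200 and 1846.

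**Figure D1:**
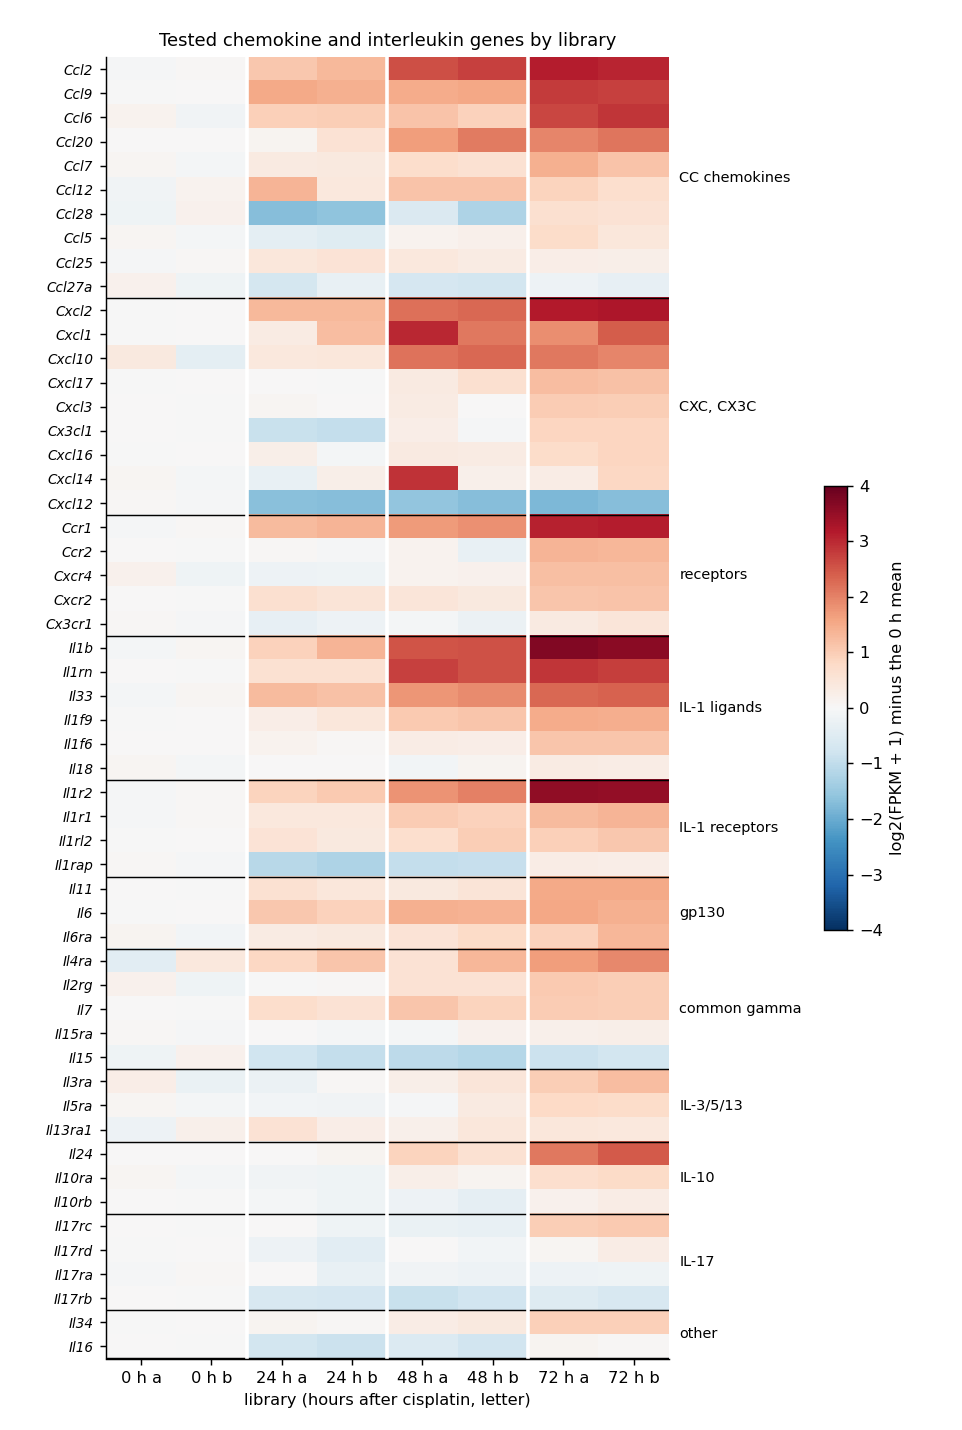
Each row is one of 54 of the 55 tested genes, grouped by family, and each column one of the 8 libraries; colour gives log2(FPKM + 1) minus the mean of the 2 libraries at 0 h, from blue (lower) to red (higher). Red deepens towards 72 h in most rows, where 46 of the 55 were higher than at 0 h, while Cxcl12, Il15 and Il17rb are blue at every later time.

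Among the CC chemokines, Ccl2 was higher from 24 h on and went on rising. Its neighbour Ccl7 was also higher at each later time, at lower levels, while Ccl12 took another course. Of 22 CC chemokines with a row, 10 were tested: 6 were higher and 3 lower at 24 h, 7 and 2 after 48 h, and 9 and 0 after 72 h; 6 of the 10 were under 1 FPKM in both 0 h libraries. Their median log2 fold change at 72 h was 1.03, against 0.07 for all rows. Ccl2 (ENSMUSG00000035385), the main monocyte attractant and ligand of Ccr2, was at 0.351 and 0.452 FPKM at 0 h, 1.98 and 2.45 after 24 h, 7.37 and 8.30 after 48 h, and 11.4 and 10.7 after 72 h. Every later library lay above both 0 h libraries, and each time lay above the one before. Its log2 fold change was 1.19 after 24 h (adjusted p = 1.6e-05), 2.66 after 48 h (adjusted p = 1.0e-07) and 3.10 ± 0.11 (SE, n = 2 libraries a time) at 72 h (limma, adjusted p = 2.7e-08). Ccl7, a related monocyte attractant, was at lower levels than Ccl2 throughout. It was at 0.173 and 0.0535 FPKM at 0 h, 0.422 and 0.473 after 24 h, 0.823 and 0.677 after 48 h, and 1.99 and 1.45 after 72 h. Its log2 fold change was 0.38 after 24 h (adjusted p = 0.021), 0.65 after 48 h (adjusted p = 0.0011) and 1.28 after 72 h (adjusted p = 1.5e-05). Ccl12, the third member of this group, was at 0.363 and 0.693 FPKM at 0 h, 2.90 and 1.03 after 24 h, 2.33 and 2.32 after 48 h, and 1.83 and 1.41 after 72 h. Its libraries at 24 h lay far apart, and its calls at 24 h (0.89, adjusted p = 0.033) and 72 h (0.78, adjusted p = 0.049) were each lost in 10 of 19 alternative settings, with adjusted p up to 0.15 and 0.22. The call at 48 h (1.13, adjusted p = 0.012) was lost in 3 of 18, without library a of 0 h or either library of 48 h.

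Ccl9 and Ccl6 are myeloid CC chemokines that bind Ccr1. Ccl9 was at 0.802 and 0.807 FPKM at 0 h, 4.12 and 3.83 after 24 h, 4.02 and 4.27 after 48 h, and 11.6 and 11.1 after 72 h. Its log2 fold change at 24 h (1.46, adjusted p = 1.7e-06) was the largest of the 55 genes. That measure understates rises from lower starts, such as those of Ccr1 and Cxcl2. Ccl9 was level to 48 h and rose again to 72 h (2.77 against 0 h). Ccl6 followed the same course from a higher start, with 2.50 and 1.82 FPKM at 0 h, 5.03 and 5.22 after 24 h, 5.92 and 4.98 after 48 h, and 18.9 and 21.6 after 72 h (2.76 against 0 h, adjusted p = 1.4e-07). The 24 and 48 h libraries of both genes overlapped, and the 72 h libraries lay above all others. Ccl20, the ligand of Ccr6 on dendritic cells and Th17 cells, was listed at 0 in both 0 h libraries. It was at 0.0706 and 0.503 FPKM at 24 h, 2.22 and 3.26 after 48 h, and 2.89 and 3.40 after 72 h, and passed the test at 48 h (adjusted p = 1.9e-05) and at 72 h (adjusted p = 1.1e-05) but not at 24 h (adjusted p = 0.13).

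Several of these genes are neighbours. On mm10, Ccl2, Ccl7, Ccl11, Ccl12, Ccl8 and Ccl1 lie at chr11:82035569-82179812, and Ccl5, Ccl9, Ccl6, Ccl3 and Ccl4 at chr11:83525780-83664683. The 3 tested genes of the first group were higher at 24, 48 and 72 h, with the losses given above for Ccl12, and all 3 were under 1 FPKM in both 0 h libraries, so that they entered the test by being higher later. In the second, Ccl9 and Ccl6 were higher at 24 h while Ccl5, which draws T cells, was lower. Ccl5 was at 0.649 and 0.505 FPKM at 0 h, 0.206 and 0.119 after 24 h, 0.719 and 0.804 after 48 h, and 1.63 and 1.16 after 72 h. The fall at 24 h (-0.44, adjusted p = 0.010) was lost without library a of 0 h or library b of 24 h, and the rise at 72 h (0.60, adjusted p = 0.0017) was lost under quantile normalisation (adjusted p = 0.13). Ccl3 and Ccl4, macrophage inflammatory proteins, did not reach the level for the test.

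**Figure D2:**
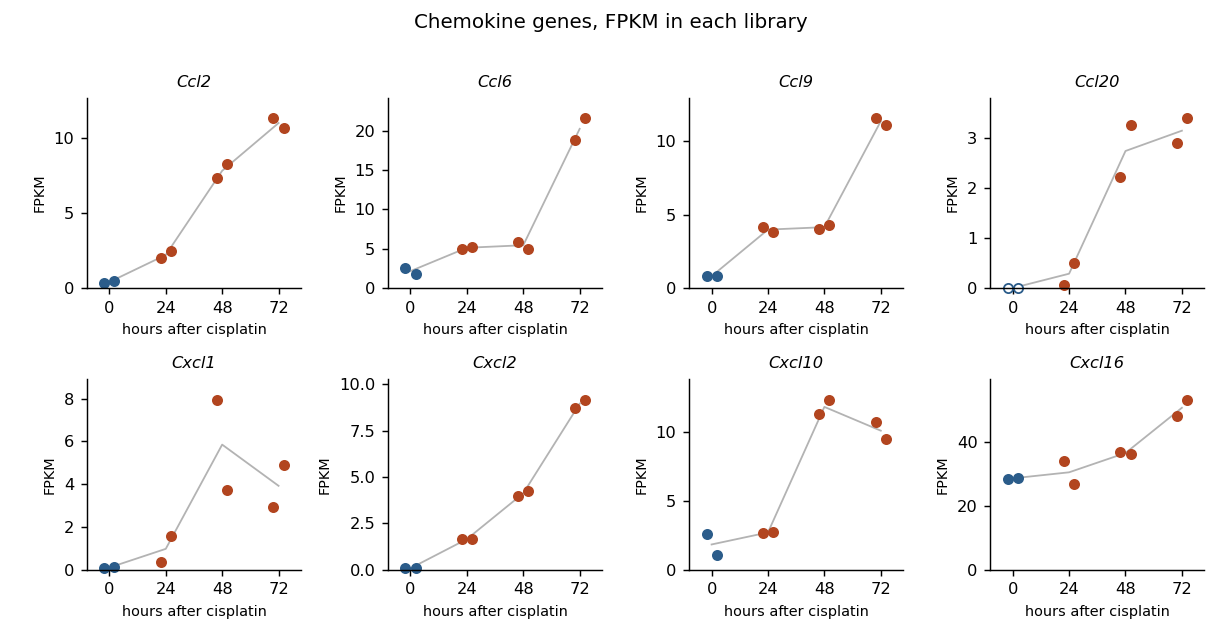
FPKM (y axis) against hours after cisplatin (x axis) for 8 chemokine genes; each point is a library, blue at 0 h and red later, open where the value is listed at 0, and the grey line joins the means. Ccl2, Ccl6, Ccl9 and Cxcl2 are highest at 72 h, Cxcl1 and Cxcl10 have their highest mean at 48 h, and the 2 Cxcl1 libraries at 48 h lie apart at 7.96 and 3.75 FPKM.

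The CXC chemokines that draw neutrophils through Cxcr2 rose from very low levels. Of 14 CXC and CX3C chemokines with a row, 9 were tested: 1 was higher and 2 lower at 24 h, 5 and 1 after 48 h, and 7 and 1 after 72 h, where 5 of the 9 were under 1 FPKM in both 0 h libraries, with a median log2 fold change at 72 h of 0.996. Cxcl2 was at 0.0643 and 0.0886 FPKM at 0 h, 1.63 and 1.66 after 24 h, 3.98 and 4.26 after 48 h, and 8.73 and 9.17 after 72 h. The libraries of each time agreed closely and no times overlapped, and the log2 fold change was 1.30 after 24 h, 2.25 after 48 h and 3.21 ± 0.09 (SE) at 72 h (adjusted p = 8.8e-09). Cxcl1 was at 0.0792 and 0.119 FPKM at 0 h, 0.376 and 1.57 after 24 h, 7.96 and 3.75 after 48 h, and 2.95 and 4.91 after 72 h. Its libraries lay far apart within 24 h and within 48 h, and the value at 24 h (0.78, adjusted p = 0.18) did not pass, while those at 48 h (2.57, adjusted p = 0.0036) and 72 h (2.13, adjusted p = 0.0077) did. Cxcl3 was at 0.0246 FPKM and listed at 0 at 0 h, at 0.261 and 0.0227 after 48 h, and at 1.04 and 1.003 after 72 h (0.996, adjusted p = 5.4e-05). Cxcl5, in the same gene cluster at chr5:90759299-90905937, was not tested: it was listed at 0 in both 0 h libraries and at 0.584 and 0.641 FPKM at 72 h. The neutrophil marker S100a8 was at 0.317 and 0.549 FPKM at 0 h, 13.03 and 13.8 after 24 h, 11.1 and 14.2 after 48 h, and 32.8 and 30.9 after 72 h, and its part in these results was not tested.

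Cxcl10 is a chemokine induced by interferons that acts on T cells through Cxcr3. It was at 2.57 and 1.09 FPKM at 0 h, 2.68 and 2.73 after 24 h, 11.3 and 12.3 after 48 h, and 10.7 and 9.49 after 72 h. The rise came between 24 and 48 h (1.79, adjusted p = 0.0014), and against 0 h it was 2.23 after 48 h and 2.02 after 72 h. Cxcl9 and Cxcl11, which share its receptor and its gene cluster at chr5:92321331-92364247, stayed under 0.45 FPKM in all libraries and were not tested. Cxcl17, a mucosal chemokine, was under 0.05 FPKM at 0 h and 24 h, at 0.336 and 0.591 after 48 h, and at 1.43 and 1.33 after 72 h (1.21, adjusted p = 9.8e-06). Cxcl14 stood apart in library a of 48 h, at 9.66 FPKM against 0.182 to 1.56 in the other 7 libraries, and did not pass the test at any time (adjusted p = 0.98, 0.20 and 0.62).

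Promoters are shown for some of the ligands that were higher at 72 h, among them Cxcl1 and Cxcl2, which differed in their courses. The sequences are the 120 bases before the annotated start, 5′ to 3′ on the gene's strand, from RefSeq's table for GRCm38.p6, the assembly that mm10 names. Capitals mark matches to the consensus of NF-kB (the kB motif) or of AP-1 (TGANTCA), searched on both strands. Il6 and Il1b are shown as other genes that rose, and Cxcl12 as the chemokine that fell most.
Cxcl1, chr5:90891125-90891244, plus strand: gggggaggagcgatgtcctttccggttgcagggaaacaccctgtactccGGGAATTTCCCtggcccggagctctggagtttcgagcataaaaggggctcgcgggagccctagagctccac
Cxcl2, chr5:90903779-90903898, plus strand: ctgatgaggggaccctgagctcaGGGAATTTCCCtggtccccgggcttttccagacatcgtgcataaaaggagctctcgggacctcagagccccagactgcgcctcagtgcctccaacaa
Cxcl10, chr5:92348890-92349009, minus strand: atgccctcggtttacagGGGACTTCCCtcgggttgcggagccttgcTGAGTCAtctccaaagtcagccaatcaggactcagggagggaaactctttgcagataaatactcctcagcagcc
Ccl20, chr1:83116646-83116765, plus strand: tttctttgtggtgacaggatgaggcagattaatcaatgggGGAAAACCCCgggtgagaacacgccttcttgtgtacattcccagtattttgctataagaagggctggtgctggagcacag
Il6, chr5:30012994-30013113, plus strand: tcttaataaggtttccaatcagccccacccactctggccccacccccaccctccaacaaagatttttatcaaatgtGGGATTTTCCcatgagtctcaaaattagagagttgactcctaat
Il1b, chr2:129371140-129371259, minus strand: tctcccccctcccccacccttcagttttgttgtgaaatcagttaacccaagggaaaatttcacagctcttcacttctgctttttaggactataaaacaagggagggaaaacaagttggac
Cxcl12, chr6:117168415-117168534, plus strand: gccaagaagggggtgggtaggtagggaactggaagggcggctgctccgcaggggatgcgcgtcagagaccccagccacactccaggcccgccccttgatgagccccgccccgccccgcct

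Counting back from the start, the kB match lies at -71 to -61 in Cxcl1, -97 to -87 in Cxcl2, -103 to -94 in Cxcl10, -80 to -71 in Ccl20 and -44 to -35 in Il6. In Cxcl1 and Cxcl2 overlapping matches on the 2 strands join into the same run of letters. The AP-1 match of Cxcl10 lies at -74 to -68. Neither motif was found in the letters shown for Il1b or Cxcl12. Il33 and Il1rn, which were also higher at 72 h, held neither motif in the 120 bases before any of their annotated starts, and their letters are not shown. A promoter entry was matched for 96 of the 128 genes, 41 of them tested. Over 250 bases before the start, 8 of the 34 matched genes that were higher at 72 h held a kB motif (Ccl20, Ccl9, Cxcl1, Cxcl10, Cxcl2, Cxcl3, Il1r1 and Il6) and 6 held TGANTCA, which were found in 3.90% and 6.75% of all 32851 windows of that length. Of the 55 matched genes that were not tested, 4 held a kB motif and 10 held TGANTCA. The motifs were in 1 and 3 of the 5 matched genes not called at 72 h, and in 0 and 1 of the 2 that were lower. The interferon-response motif ISRE (2.98% of all windows) was in Cxcl10 alone of the 34, and the STAT motif TTCNNNGAA (7.02%) in Il1f9 and Il1r2. A gene can have several windows, so the shares by gene and by window are not on the same base, and a match is a description of letters only.

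A smaller group of ligands fell. Cxcl12 (ENSMUSG00000061353), the homeostatic ligand of Cxcr4 that retains leukocytes and progenitor cells in tissues, was at 32.5 and 30.4 FPKM at 0 h, 9.07 and 8.88 after 24 h, 9.97 and 9.01 after 48 h, and 8.24 and 8.96 after 72 h. It fell by the first time point and stayed there, with no later library near the 0 h level. Its log2 fold change was -1.70 after 24 h, -1.63 after 48 h and -1.76 ± 0.08 (SE) at 72 h (limma, adjusted p = 1.7e-07). Il15, which maintains NK cells and memory T cells, fell from 8.61 and 10.96 FPKM at 0 h to 5.11 and 4.55 after 24 h, 4.20 and 3.88 after 48 h, and 4.95 and 5.505 after 72 h (-0.79, adjusted p = 0.00031). Il17rb, a receptor for IL-25, went from 2.37 and 2.27 FPKM at 0 h to 1.34 and 1.15 after 72 h (-0.56, adjusted p = 0.00088), though its row runs past the gene's RefSeq ends. The summed proximal tubule markers fell over the same times, and their part in these falls was not tested.

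Other genes fell at first and then moved back towards or past their starting level. Ccl28, a mucosal epithelial chemokine, was at 3.10 and 4.26 FPKM at 0 h, 0.418 and 0.526 after 24 h, 2.12 and 0.985 after 48 h, and 6.24 and 5.88 after 72 h. It was the steepest of these courses, with a log2 fold change of -1.66 after 24 h (adjusted p = 0.00017) and 2.26 from 24 to 72 h (adjusted p = 4.2e-05). The rise over 0 h at 72 h (0.60, adjusted p = 0.029) was lost in 8 of 19 alternative settings, with adjusted p up to 0.17. Cx3cl1, the membrane-anchored fractalkine that binds Cx3cr1, was at 14.8 and 14.5 FPKM at 0 h, 7.47 and 7.15 after 24 h, 17.9 and 14.3 after 48 h, and 27.7 and 27.3 after 72 h. Its 24 h libraries were lowest and its 72 h libraries highest (-0.92 and 0.86 against 0 h, adjusted p = 4.8e-05 and 5.4e-05). The row also covers Ccl17, another CC chemokine gene, so the value cannot be given to Cx3cl1 alone. Il16, a T cell attractant, was at 2.69 and 2.67 FPKM at 0 h, 1.19 and 1.02 after 24 h, and 3.01 and 2.83 after 72 h, where it did not pass the test (0.09, adjusted p = 0.48). Ccl27a, an epithelial chemokine, was at 5.499 and 4.12 FPKM at 0 h, 2.56 and 3.65 after 24 h, 2.61 and 2.49 after 48 h (-0.70, adjusted p = 0.0027), and 3.98 and 3.60 after 72 h. Its call at 24 h (-0.50, adjusted p = 0.016) was lost in 5 of 18 alternative settings, scaling to the same median and quantile normalisation among them. Its 72 h libraries lay below both 0 h libraries and did not pass the test (-0.27, adjusted p = 0.14), except under quantile normalisation (adjusted p = 0.049). Its row spans a stretch of chromosome 4 with near-identical gene copies, among them Ccl21d and Ccl27b, so its values are uncertain.

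**Figure D3:**
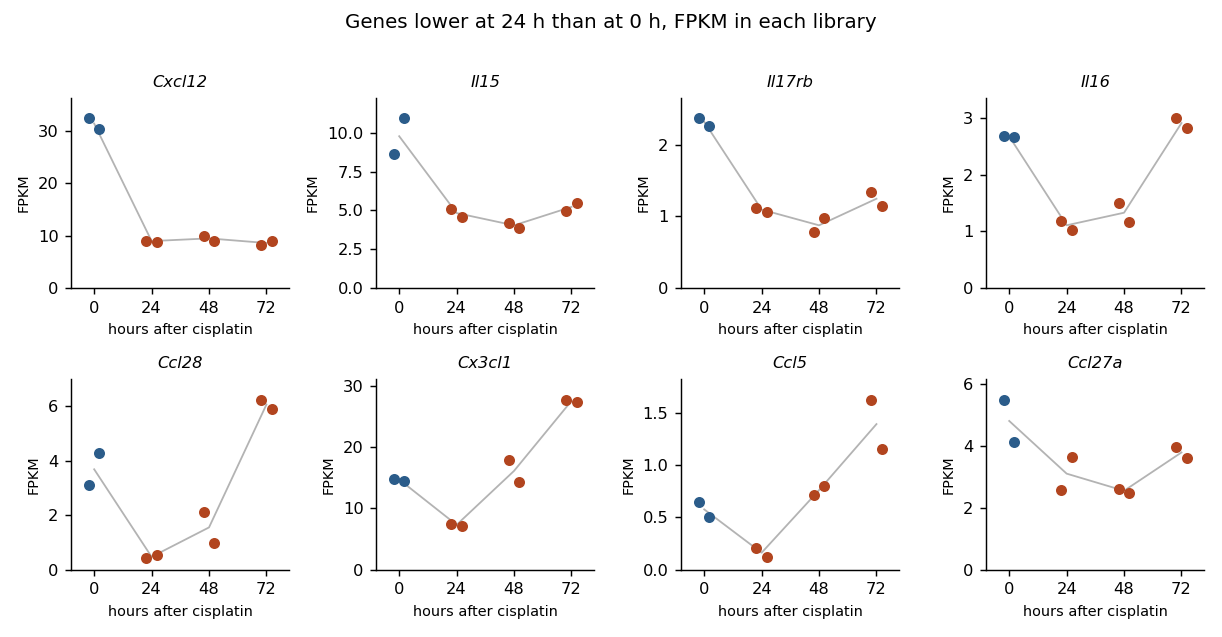
FPKM (y axis) against hours after cisplatin (x axis) for 8 genes that were lower at 24 h than at 0 h; each point is a library, blue at 0 h and red later, and the grey line joins the means. Cxcl12, Il15 and Il17rb stay low to 72 h, while Ccl28, Cx3cl1 and Ccl5 pass their 0 h level by 72 h and Il16 comes back to it.

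Cxcl16, the membrane-bound ligand of Cxcr6, was among the most abundant of these genes in FPKM, with 28.4 and 28.6 at 0 h, 34.0 and 26.9 after 24 h, 36.8 and 36.1 after 48 h, and 48.0 and 53.1 after 72 h (0.80, adjusted p = 0.00011). Its 24 h libraries lay on both sides of the 0 h libraries, and its call at 48 h (0.34, adjusted p = 0.015) was lost when any 1 of the 0 h or 48 h libraries was left out. Its row spans the rows of Med11 and Zmynd15. Cxcr6, its receptor on T cells, was not tested and was listed at 0.657 and 0.470 FPKM at 0 h and 0.284 and 0.383 after 72 h.

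All 6 tested chemokine receptors of 18 with a row were higher at 72 h (37.6% of all tested rows), with a median log2 fold change of 1.17, and 2 of the 6 were under 1 FPKM in both 0 h libraries. At 24 h and again at 48 h, 3 were higher and 0 lower. Over all tested rows the shares were 25.8% and 40.0% at 24 h, and 28.5% and 42.1% at 48 h. Ccr1, a receptor of monocytes and neutrophils for Ccl6 and Ccl9 among others, was near 0 in library a and at 0.0817 FPKM in library b of 0 h, then at 1.49 and 1.69 after 24 h, 2.42 and 2.67 after 48 h, and 7.81 and 8.19 after 72 h. No times overlapped, and the log2 fold change was 1.32 after 24 h, 1.77 after 48 h and 3.11 ± 0.10 (SE) at 72 h (adjusted p = 1.7e-08). Cxcr2, the neutrophil receptor for Cxcl1 and Cxcl2, was at 0.0154 and 0.0114 FPKM at 0 h, 0.580 and 0.436 after 24 h, 0.417 and 0.320 after 48 h, and 1.19 and 1.25 after 72 h (1.13, adjusted p = 7.6e-06). From 24 to 48 h it did not pass the test (-0.14, adjusted p = 0.33), and the summed neutrophil markers of these times overlapped.

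The receptors of monocyte traffic and retention rose later. Ccr2, the receptor of Ccl2 on inflammatory monocytes, was at 1.73 and 1.70 FPKM at 0 h, 1.79 and 1.60 after 24 h, 1.98 and 1.23 after 48 h, and 6.04 and 5.88 after 72 h. The libraries of the first 3 times overlapped, and the log2 fold change was -0.01 after 24 h (adjusted p = 0.95), -0.07 after 48 h (adjusted p = 0.64) and 1.36 after 72 h (adjusted p = 2.0e-05). Thus its ligand Ccl2 rose from 24 h while the row of Ccr2, which runs past the gene's RefSeq ends, was higher than at 0 h at 72 h only. Cxcr4, the receptor of Cxcl12, was at 2.353 and 1.61 FPKM at 0 h, 1.57 and 1.62 after 24 h, 2.30 and 2.30 after 48 h, and 5.81 and 5.89 after 72 h (1.21, adjusted p = 2.2e-05). It rose at 72 h while its ligand remained low. Cx3cr1, a receptor of resident macrophages and monocytes, was at 1.117 and 1.01 FPKM at 0 h and 1.64 and 1.91 after 72 h (0.43, adjusted p = 0.0066), and the call was lost without library b of 72 h and under quantile normalisation. Its row spans several other genes, Wdr48 and Csrnp1 among them. The summed macrophage and monocyte markers without Ly6c2 had their largest step between 48 and 72 h too, but single markers took different courses. Lyz2 was at 13.8 to 19.5 FPKM in the 6 libraries from 0 to 48 h and at 78.9 and 79.5 after 72 h. Cd14 rose more by 24 h (log2 fold change 1.22) than from 48 to 72 h (0.38). Ms4a7 was at 2.31 and 0.886 FPKM at 0 h and 1.001 and 1.41 after 72 h. The part of these markers in the receptor values was not tested. Ccr3 and Ccr9 were not tested, nor was Cxcr3, which was at 0.145 and 0.206 FPKM at 72 h.

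**Figure D4:**
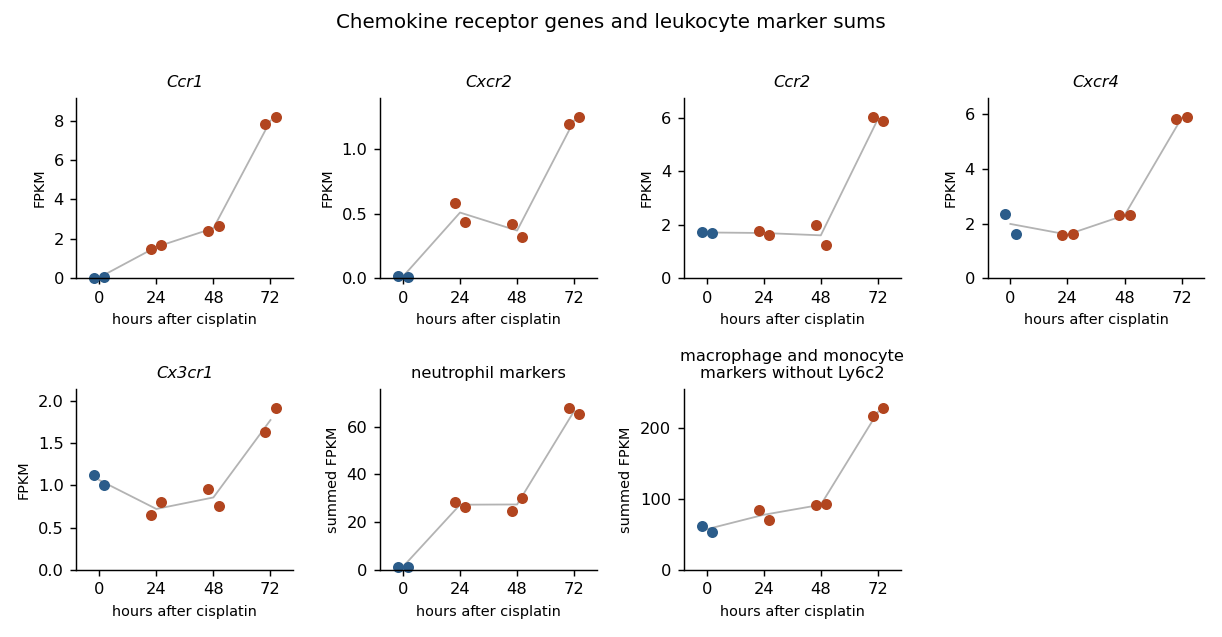
FPKM (y axis) against hours after cisplatin (x axis) for 5 chemokine receptor genes, and summed FPKM of the neutrophil markers and of the macrophage and monocyte markers without Ly6c2; each point is a library, blue at 0 h and red later, and the grey line joins the means. Ccr1 climbs from 24 h on, whereas Ccr2 and Cxcr4 stay near their 0 h level to 48 h and are at 5.81 to 6.04 FPKM at 72 h, and both marker sums are highest at 72 h.

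The IL-1 family held the largest log2 fold change at 72 h of the 55 genes, that of Il1b. All 6 tested ligands of 10 with a row were higher at 72 h, with 4 higher at 24 h, 5 after 48 h and none lower at any time, and the median log2 fold change at 72 h was 1.91; 4 of the 6 were under 1 FPKM in both 0 h libraries. Il1b (ENSMUSG00000027398), the inflammatory cytokine that inflammasomes activate, was at 0.564 and 0.755 FPKM at 0 h, 2.12 and 3.23 after 24 h, 8.41 and 8.78 after 48 h, and 20.6 and 19.4 after 72 h. Each time lay above the one before without overlap. Its log2 fold change was 1.13 after 24 h (adjusted p = 0.00011), 2.53 after 48 h (adjusted p = 5.4e-07) and 3.66 ± 0.14 (SE) at 72 h (adjusted p = 4.5e-08). Il33, a nuclear alarmin released by damaged cells, was at 1.96 and 2.33 FPKM at 0 h, 6.51 and 6.04 after 24 h, 9.66 and 10.6 after 48 h, and 14.6 and 15.1 after 72 h (2.33, adjusted p = 6.3e-08). Its receptor gene Il1rl1 was not tested and reached 0.241 and 0.356 FPKM at 72 h. Il18, which inflammasomes also activate, was at 1.02 and 0.813 FPKM at 0 h and 1.39 and 1.36 after 72 h, a difference (0.31, adjusted p = 0.031) that was lost in 5 of 18 alternative settings, with adjusted p up to 0.96. Its row spans that of Tex12.

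The antagonists and decoys of IL-1 rose along with it. Il1rn, the secreted antagonist that occupies the IL-1 receptor, was at 0.0586 and 0.0302 FPKM at 0 h, 0.607 and 0.592 after 24 h, 5.90 and 5.06 after 48 h, and 6.58 and 6.15 after 72 h. Most of its rise fell between 24 and 48 h (2.02, adjusted p = 1.7e-05), and from 48 to 72 h it did not pass the test (0.19, adjusted p = 0.16). Il1r2, the decoy receptor that binds IL-1 without signalling, was at 0.0398 and 0.0958 FPKM at 0 h, 0.961 and 1.21 after 24 h, 2.67 and 3.33 after 48 h, and 11.4 and 11.3 after 72 h (3.53, adjusted p = 1.7e-08). Here the larger step came from 48 to 72 h (1.63, adjusted p = 1.6e-05), in a row that runs past the gene's RefSeq ends. Il1r1, the signalling receptor, rose less, from 0.770 and 0.869 FPKM at 0 h to 1.43 and 1.44 after 24 h, 2.68 and 2.46 after 48 h, and 3.41 and 3.62 after 72 h (1.31, adjusted p = 2.4e-06). Il1rap, the accessory chain that the signalling receptors of IL-1, IL-33 and IL-36 share, went the other way at first. It was at 2.50 and 2.28 FPKM at 0 h, 0.583 and 0.449 after 24 h, 0.748 and 0.785 after 48 h, and 3.14 and 3.03 after 72 h. The fall was clear at 24 h (-1.16, adjusted p = 1.1e-05) and 48 h (-0.94, adjusted p = 2.7e-05), while the value over 0 h at 72 h (0.27, adjusted p = 0.033) was lost in 8 of 19 alternative settings, with adjusted p up to 0.75.

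The IL-36 arm of the family was also higher at 72 h, from low levels. Il1f9 is the older name of Il36g and Il1f6 that of Il36a, both epithelial agonists of the receptor Il1rl2. Il1f9 was at 0.0654 and 0.0719 FPKM at 0 h, 0.286 and 0.478 after 24 h, 1.20 and 1.29 after 48 h, and 2.01 and 1.94 after 72 h (1.48, adjusted p = 1.8e-06). Il1f6 was listed at 0 in both 0 h libraries and was at 0.0908 and 0.0371 FPKM at 24 h, 0.239 and 0.191 after 48 h, and 1.17 and 1.14 after 72 h (adjusted p = 5.2e-06). Il1rl2 was at 0.134 and 0.138 FPKM at 0 h and 1.22 and 1.41 after 72 h (1.03, adjusted p = 6.8e-05). Both ligands lie with Il1rn at chr2:24153161-24351494, and Il1rl2 lies with Il1r1 and Il1r2 at chr1:40074079-40551788. The 3 tested genes of each cluster were all under 1 FPKM in both 0 h libraries and entered the test by being higher later, while 3 genes of each cluster were not tested.

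**Figure D5:**
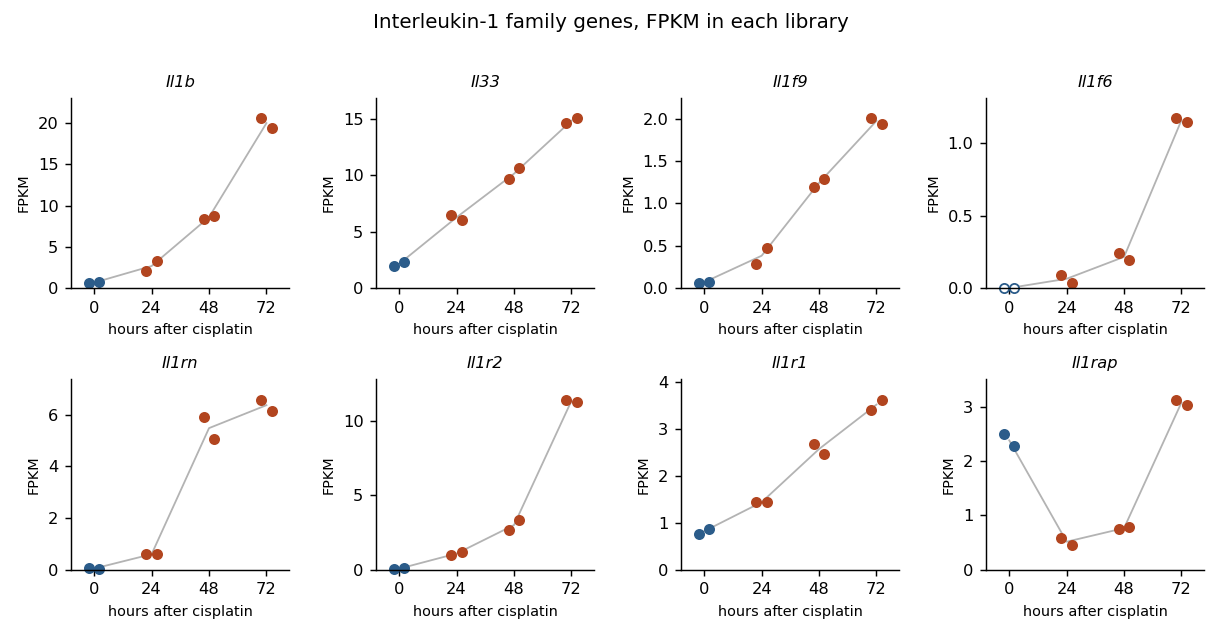
FPKM (y axis) against hours after cisplatin (x axis) for 8 genes of the IL-1 family; each point is a library, blue at 0 h and red later, open where the value is listed at 0, and the grey line joins the means. Il1b, Il33, Il1r1 and Il1r2 climb at each time, Il1rn makes most of its rise by 48 h, and Il1rap dips at 24 and 48 h.

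Among the cytokines that signal through gp130 and their receptors, 3 of 7 were tested: Il6, Il11 and Il6ra. All 3 were under 1 FPKM in both 0 h libraries and could enter the test only by being higher later, so their values are given and no count is drawn from them. Il6, the acute-phase cytokine, was listed at 0 and at 0.0216 FPKM in the 0 h libraries, at 1.13 and 0.908 after 24 h, 1.71 and 1.64 after 48 h, and 1.96 and 1.72 after 72 h. Its largest step was the one by 24 h (0.99, adjusted p = 3.3e-05), and from 48 to 72 h it did not pass the test (0.09, adjusted p = 0.51). Il11, a related cytokine of stromal and epithelial cells, was at 0.0268 FPKM and listed at 0 at 0 h, at 0.536 and 0.393 after 24 h, 0.340 and 0.434 after 48 h, and 1.92 and 1.93 after 72 h (1.53, adjusted p = 1.1e-06). Il6ra, the ligand-binding receptor chain of IL-6, was at 0.761 and 0.538 FPKM at 0 h and 2.15 and 3.15 after 72 h (1.14, adjusted p = 0.00012). The shared receptor chain Il6st and the IL-11 receptor gene Il11ra1 were not analysed here.

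Cytokines of the IL-10 family were read through few genes. Il24, an epithelial cytokine of this family, was listed at 0 in both 0 h libraries and in library a of 24 h, was at 0.0758 FPKM in the other, 0.842 and 0.538 after 48 h, and 3.33 and 4.49 after 72 h. Both 72 h libraries lay above all others (adjusted p = 7.5e-07 against 0 h). Its neighbours Il20, Il19 and Il10 at chr1:130882027-131024974 were not tested, and Il10 did not exceed 0.137 FPKM in any library. Il10ra, the ligand-binding chain of the IL-10 receptor on leukocytes, was at 0.977 and 0.802 FPKM at 0 h and 2.01 and 2.23 after 72 h (0.73, adjusted p = 0.00020). Il10rb, the chain that the IL-10 and IL-22 receptors share, was at 18.7 and 18.2 FPKM at 0 h, 15.7 and 14.03 after 48 h, and 20.8 and 22.8 after 72 h, in a row that also covers Ifnar2. Its calls at 48 h (-0.29, adjusted p = 0.012) and 72 h (0.23, adjusted p = 0.037) were both lost under scaling to the same median, and also without library a of 0 h or library b of the later time. Il22ra1, the epithelial receptor chain for IL-22, did not reach the level for the test: it was at 0.656 and 1.002 FPKM at 0 h, 0.259 and 0.266 after 24 h, 0.142 and 0.221 after 48 h, and 0.162 and 0.220 after 72 h. In a fit with no filter on low values it was lower at all 3 times, with a log2 fold change at 72 h of -0.61 (limma, adjusted p = 0.0029).

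Among the cytokines of the common gamma chain and their receptors, 5 of 14 were tested: 3 were higher and 1 lower at 72 h. Those shares, 60.0% and 20.0%, stood beside 37.6% and 32.4% of all tested rows, a difference that was not tested with so few genes. By 24 h, 1 had risen while 1 had fallen (all tested rows: 25.8% higher, 40.0% lower). After 48 h, 2 were higher but 1 was lower (all tested rows: 28.5% higher, 42.1% lower). Il7, a growth factor of lymphocytes, was at 0.305 and 0.280 FPKM at 0 h, 1.119 and 0.946 after 24 h, 1.79 and 1.39 after 48 h, and 1.59 and 1.53 after 72 h (0.99, adjusted p = 3.8e-05). The rows of Il7 and of Il4ra, given below, each run past a RefSeq end of the gene. Il2rg, the common gamma chain itself, was at 1.57 and 1.03 FPKM at 0 h and 3.70 and 3.52 after 72 h (1.01, adjusted p = 6.9e-05), in a row that also covers Gm614. Il4ra, the receptor chain for IL-4 and IL-13, was at 4.33 and 8.38 FPKM at 0 h, 11.6 and 14.3 after 24 h, 9.54 and 16.8 after 48 h, and 21.7 and 25.6 after 72 h. Its libraries lay far apart at 0 and 48 h, so it passed the test at 72 h (1.80 ± 0.37 SE, adjusted p = 0.0083) but not at 24 h (0.97, adjusted p = 0.070) or 48 h (0.95, adjusted p = 0.069), where 6 alternative settings each gave a call. Il15ra, which presents IL-15, was at 3.30 and 3.03 FPKM at 0 h and 3.79 and 3.86 after 72 h and did not pass at any time (at 72 h 0.21, adjusted p = 0.11).

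The partner of Il4ra, Il13ra1, was at 4.31 and 5.96 FPKM at 0 h, 8.13 and 6.37 after 24 h, and 7.27 and 7.12 after 72 h (0.43, adjusted p = 0.036), a call lost in 5 of 19 alternative settings with adjusted p up to 0.24. The alpha chains Il3ra and Il5ra were higher at 72 h only: Il3ra was at 1.03 and 0.391 FPKM at 0 h and 2.34 and 2.92 after 72 h (1.11, adjusted p = 0.00083). Il5ra was at 0.764 and 0.588 FPKM at 0 h and 1.91 and 1.78 after 72 h (0.76, adjusted p = 0.00079), in a row that runs past the gene's RefSeq ends. None of these 3 genes was called at 48 h in the main fit. For Il13ra1 (0.33, adjusted p = 0.090 at 48 h), scaling to the same median and quantile normalisation did give a call there. Its call at 24 h (0.43, adjusted p = 0.038) was lost in 7 of 19 alternative settings.

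The IL-17 receptors differed among themselves. Il17ra, the common signalling chain, was at 6.95 and 7.5 FPKM at 0 h and 6.21 and 6.34 after 72 h and did not pass at any time (-0.18 after 72 h, adjusted p = 0.17). Its partner Il17rc was at 8.61 and 8.37 FPKM at 0 h, 8.51 and 7.51 after 24 h, 6.95 and 6.70 after 48 h, and 18.0 and 18.6 after 72 h (1.02, adjusted p = 5.3e-06), in a row that also covers Il17re. Il17rd was lower at 24 h, at 1.24 and 0.910 FPKM against 1.55 and 1.58 at 0 h (-0.31, adjusted p = 0.045), a call lost in 10 of 19 alternative settings with adjusted p up to 0.22. Il34, an epithelial ligand of the macrophage receptor Csf1r, was at 21.8 and 22.2 FPKM at 0 h, 23.6 and 22.7 after 24 h, 27.0 and 28.9 after 48 h, and 43.9 and 43.3 after 72 h (0.96, adjusted p = 1.9e-06). That row also covers Sf3b3, a splicing factor gene, so the level cannot be given to Il34 alone. None of the 6 IL-12 family genes reached the level for the test.

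A few genes under that level moved or stood apart. Ccl11, the eosinophil attractant eotaxin, was at 0.0613 and 0.0478 FPKM at 0 h, 0.894 and 0.613 after 48 h, and 0.663 and 1.17 after 72 h. Ccl21a, which guides cells through lymphatic vessels, was at 0.632 and 0.633 FPKM at 0 h, 0.0475 and 0.139 after 24 h, and 0.495 and 0.5996 after 72 h. Il18rap stood apart in library a of 0 h, at 1.46 FPKM against 0.0396 in library b. Il18r1, the ligand-binding receptor chain of IL-18, was at 0.115 and 0.0926 FPKM at 0 h and 0.546 and 0.506 after 72 h. These genes were chosen after their values were seen, apart from Il18r1.

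Genes downstream of these receptors were taken from lists of the pathways. Of 22 tested genes of IL-1 receptor and NF-kB signalling, 9 were higher and 8 lower at 24 h, 12 and 4 after 48 h, and 15 and 3 after 72 h. As shares, 40.9% and 36.4% at 24 h stood beside 25.8% and 40.0% of all tested rows, and 68.2% and 13.6% at 72 h beside 37.6% and 32.4%. The NF-kB inhibitor Nfkbia, itself a target of NF-kB, was at 15.2 and 14.3 FPKM at 0 h, 25.2 and 22.5 after 24 h, 29.4 and 30.6 after 48 h, and 46.3 and 45.5 after 72 h (1.58, adjusted p = 1.9e-07). Its row runs past the gene or spans other rows. The NF-kB subunit gene Nfkb2 (1.83) and the ubiquitin-editing inhibitor Tnfaip3 (1.64) were also higher at 72 h. Sigirr, an inhibitory receptor of the IL-1 family, was at 64.0 and 59.4 FPKM at 0 h and 17.2 and 18.7 after 72 h (-1.73, adjusted p = 9.6e-07), in a row that covers another gene as well. Of 13 tested JAK-STAT genes, 5 were higher and 5 lower at 24 h, 6 and 2 after 48 h, and 9 and 1 after 72 h. The shares were 38.5% each way at 24 h, where the share lower was near that of all tested rows, and 69.2% and 7.69% at 72 h. Socs3, the feedback inhibitor that gp130 cytokines induce, was at 0.580 and 0.429 FPKM at 0 h, 9.03 and 8.56 after 24 h, 12.3 and 11.6 after 48 h, and 16.3 and 15.7 after 72 h (3.5, adjusted p = 4.7e-09). Stat3, the factor that IL-6 and IL-11 receptors activate, was at 13.6 and 14.95 FPKM at 0 h and 34.7 and 38.4 after 72 h (1.30, adjusted p = 9.4e-06). Among 7 tested atypical receptors and other chemokine genes, 1 was higher and 4 lower at 24 h, 3 and 3 after 48 h, and 3 and 2 after 72 h. As shares, these were 14.3% and 57.1% at 24 h, 42.9% each way at 48 h, and 42.9% and 28.6% at 72 h. Over all tested rows the shares were 25.8% and 40.0%, 28.5% and 42.1%, and 37.6% and 32.4%. At 72 h the list was near all tested rows both ways. Ackr4, a scavenger of Ccl19, Ccl21 and Ccl25, was at 6.04 and 5.45 FPKM at 0 h and 2.42 and 2.55 after 72 h (-0.95, adjusted p = 2.8e-05).

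Circular RNA gave a further readout for 1 of these genes. The table of circular RNAs held 1 back-splice pair inside a row of the 128 genes, in Il15 at chr8:82376957-82379615. It was counted 5 and 5 times at 0 h, 6 and 1 after 24 h, 5 and 5 after 48 h, and 4 and 5 after 72 h. These 36 counts in all were not tested between times.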

How the data were processed

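Linear RNA was deposited by the authors as FPKM, 1 value for each gene row and library, a unit taken per the file headers. Of circular RNA, the deposited whole-number counts per back-splice pair were used. Per the submitters' processing notes, the tools were Bowtie 0.12.2, TopHat2 and Cufflinks and the build mm10. The sources used here name no caller for circular RNAs. Per the labels' protocols, the libraries were made with a kit named as one for small RNA. Table columns carry a time and a letter, so each was assigned to its time only, and 8 further columns of the circular RNA table, named as normalised counts per the file headers, were not used. Genes were matched to symbols by Ensembl identifier, and each row's span was compared with RefSeq: 105 of the 128 rows keep to their own gene (within 2000 bases), 7 also cover a gene with no row of its own, and 16 run past the gene or span other rows.

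All 8 libraries were fitted in 1 model with limma 3.58.1 in R 4.3.3 (intensity trend, robust) on log2(FPKM + 1), over rows that reached 1 FPKM in 2 or more libraries, two-sided, with Benjamini-Hochberg adjustment within each comparison and a threshold of 0.05. The fit was tested on simulated data. For marker sums, an exact permutation test enumerated the 105 ways to split 8 libraries into 4 pairs (smallest possible p = 0.00952). It gave 0.00952 for proximal tubule, macrophage and monocyte, fibroblast and pericyte, and platelet lists, 0.0190 for T and NK cell and endothelial lists, and 0.0286 for neutrophil, B cell and dendritic cell lists. The most frequent low value of FPKM times length in kilobases was 0.016 to 0.024 over the libraries. Further steps were not looked for, so whole reads were not recovered.

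The values of 1 tested gene are not reported here, though it is included in the counts. The genes and lists were chosen with earlier results of these data known. The text names up to 10 genes with the largest rises and 10 with the largest falls in each comparison with 0 h, up to 5 each way between later times, the 8 most abundant genes, a set of ligand and receptor pairs, and up to 4 genes of each other list; the few others were chosen after their values were seen. Alternatives tried were other pseudocounts, other filters, scaling to the same median, quantile normalisation, no trend, a replicate block, fits of 2 groups, rows that keep to their own gene, each library left out and, chosen after seeing the data, both 48 h libraries left out.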

Additional observations from a re-analysis of the deposited data

Results flagged for a closer look

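Genes that moved in opposite directions at 24 h and 72 h, both against the same 0 h libraries, were 4: Ccl28, Ccl5, Cx3cl1 and Il1rap. They were picked for a fall at 24 h and a rise at 72 h, which fixes that 72 h lies above 24 h, so the sizes are a description and no test is given. From 24 to 72 h the log2 fold change was 2.26 for Ccl28, 1.04 for Ccl5, 1.78 for Cx3cl1 and 1.43 for Il1rap. The rises of Ccl28, Ccl5 and Il1rap over 0 h at 72 h were each lost in at least 1 alternative setting. The same pattern was found in 394 of all 10757 tested rows.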

How the results depend on the processing

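The counts of genes called were refitted under each alternative. In a fit of only the groups compared, 11 in place of 21 genes were higher at 24 h, 13 in place of 22 rose from 24 to 48 h, and 1 in place of 0 fell from 48 to 72 h. With rows that keep to their own gene, 5 in place of 9 were lower at 48 h. Quantile normalisation gave 5 in place of 3 lower at 72 h, and it and scaling to the same median each gave 2 falls from 48 to 72 h and 2 from 24 to 72 h in place of 0. From 24 to 72 h, 1 gene fell with no filter, with a filter at 0.3 FPKM and with no trend. Leaving out 1 library at a time gave 30 to 45 genes higher at 72 h, 21 to 37 rising and 0 to 1 falling from 48 to 72 h, 0 to 1 falling from 24 to 48 h and 0 to 1 falling from 24 to 72 h. With the letter of the columns as a replicate block, the counts higher and lower were 21 and 9 after 24 h, 31 and 9 after 48 h, and 44 and 3 after 72 h, and no count moved by over 1.5 times. The letters did not pair the libraries: deviations of libraries with the same letter correlated at -0.24 to 0.39 over the pairs of times. For single named genes, over the comparisons with 0 h and those between later times, no setting reversed a direction. Of 106 calls 21 were lost in at least 1 setting. The exact permutation p of the B cell sum was 0.352 without the Cd79a row and 0.00952 to 0.0952 with 1 library left out, and that of the dendritic cell sum was 0.00952 to 0.0762 with 1 library left out. The depth of linear RNA is unknown, which limits what can be said of genes under 1 FPKM.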
